A study of Mus musculus with 4 samples.

Results

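The interferon regulatory factors (IRFs) and the signal transducers and activators of transcription (STATs) are transcription factors that carry the interferon and cytokine response. Their members described here were Irf1, Irf3, Irf5, Irf7, Irf8, Irf9, Stat2, Stat3 and Stat6. They were chosen by gene symbol, and all 9 were found among the 14432 genes of the count table. The table counts UMIs, the molecular identifiers that tag each captured mRNA molecule once, in 27366 mouse bone marrow-derived macrophages. The macrophages had been grown from marrow in M-CSF (50 ng/mL), taken from C57BL/6 mice 8 to 12 weeks old that were wild type (C57BL/6J in the titles) or labelled null for Trpv4, the gene of a calcium channel. They were left untreated or received lipopolysaccharide (LPS, a bacterial cell wall component sensed by TLR4) at 100 ng/mL for 24 h. Each of the 4 groups was 1 library, so no difference has a replicate check and no test was made. The design text speaks of 3 mice per genotype and 12 samples, but the cells carry the name of a library and of no mouse.

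The libraries held 5485 to 8288 cells and 43731003 to 144090985 UMIs, and the median cell had 5660.5 and 7893 UMIs untreated (wild type first) against 16673.5 and 16041 after LPS. Levels are given as CPM, counts per 1000000 UMIs of the library, with 95% intervals that cover counting error only, and values of 4 libraries are listed in the order wild type untreated, labelled Trpv4-null untreated, wild type with LPS, labelled Trpv4-null with LPS. Trpv4 itself read 5.83, 8.60, 2.07 and 9.62 CPM, so neither library labelled Trpv4-null read lower than its wild-type counterpart. Counts of the gene cannot show whether its protein was lost, and "labelled Trpv4-null" is kept throughout. The 10 macrophage markers looked at (among them Lyz2, Adgre1 and Csf1r) all reached 20 CPM in every library. None of 8 conventional dendritic cell markers did, and their summed level was 4.39 to 6.34 CPM. Siglech, which defines plasmacytoid dendritic cells, stood at 0 to 0.787 CPM. Of the barcodes, 74 occurred in more than 1 library.

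In macrophages, IRF3 and IRF7 are latent in the cytoplasm until kinases downstream of TLR4 and of nucleic acid sensors phosphorylate them, and they then switch on the gene for interferon beta. Secreted interferon acts back through the interferon receptor and Janus kinases, and STAT2 with IRF9 and a partner STAT forms the complex ISGF3, which binds interferon-stimulated response elements (ISREs). Irf7 is itself a classical ISGF3 target, which closes a feed-forward loop. IRF1 is made on demand and drives genes typical of interferon gamma, IRF5 acts with MyD88 on inflammatory cytokine genes, and IRF8 is a lineage factor of monocytes, macrophages and dendritic cells. STAT3 serves the receptors of interleukins 6 and 10, and STAT6 those of interleukins 4 and 13. Several of these proteins are controlled by phosphorylation, which mRNA counts do not measure.

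The 250 bases before each RefSeq gene start were searched on both strands for 5 motifs, because several of these genes are known to be regulated by members of the same family. The motifs were the ISRE (GAAA, any 2 bases, GAAA), the gamma-activated site or GAS (TTC, any 3 bases, GAA), a STAT6-type GAS (TTC, any 4 bases, GAA), an ETS-IRF composite (GGAA, any 2 bases, GAAA) and an NF-kB site (GGG, any 2 bases, TTTCC). Among 32841 RefSeq promoters of the same length they occurred in 2.98%, 7.02%, 5.85%, 2.30% and 1.41%. The 9 members had 12 such windows, and 3 windows held a match. Those of Irf1, Irf8 and Stat2 are printed 5′ to 3′ from RefSeq on GRCm38.p6, on the plus strand on which all 3 genes lie, with matches in capitals.
Irf1, chr11:53769764-53770013: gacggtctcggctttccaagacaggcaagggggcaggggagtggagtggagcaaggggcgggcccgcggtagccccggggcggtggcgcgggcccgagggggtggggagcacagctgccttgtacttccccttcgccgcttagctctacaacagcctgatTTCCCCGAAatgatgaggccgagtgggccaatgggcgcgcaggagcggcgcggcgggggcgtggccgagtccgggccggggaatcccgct
Irf8, chr8:120736108-120736357: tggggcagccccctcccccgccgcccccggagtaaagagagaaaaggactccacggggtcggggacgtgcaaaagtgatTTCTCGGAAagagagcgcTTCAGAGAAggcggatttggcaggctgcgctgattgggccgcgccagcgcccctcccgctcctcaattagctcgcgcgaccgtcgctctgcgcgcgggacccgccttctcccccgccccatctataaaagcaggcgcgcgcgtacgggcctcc
Stat2, chr10:128270248-128270497: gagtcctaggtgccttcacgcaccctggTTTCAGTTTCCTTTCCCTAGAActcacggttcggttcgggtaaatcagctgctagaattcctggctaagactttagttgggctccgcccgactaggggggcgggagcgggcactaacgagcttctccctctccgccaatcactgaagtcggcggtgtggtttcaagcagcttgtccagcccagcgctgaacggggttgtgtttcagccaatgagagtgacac
Distances are counted back from the RefSeq start, which in Irf1 and Irf8 is also the GENCODE start given with the levels. In Stat2 the GENCODE start lies downstream of it, and both Irf9 windows and part of the Irf7 window lie within the GENCODE gene. The Irf1 window held 1 GAS, TTCCCCGAA, 90 to 82 bases before the start. The Irf8 window held 2 GAS matches, TTCTCGGAA at 171 to 163 and TTCAGAGAA at 153 to 145. In Stat2 the capitals cover 3 overlapping matches, an ISRE that reads TTTCAGTTTC on the printed strand at 222 to 213, an ETS-IRF composite TTTCCTTTCC at 216 to 207, and a STAT6-type GAS TTCCCTAGAA at 210 to 201. A match is a description of letters and not evidence of binding, and a window without one says nothing of a factor.

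The make-up of the family differed between untreated and LPS-treated cells. Untreated, Irf8 supplied 41.7% and 40.7% of the UMIs of the 9 genes in wild type and labelled Trpv4-null, and Irf7 3.40% and 5.99%. With LPS, Irf7 supplied 57.8% and 59.6%, and Irf8 9.44% and 9.27%. The summed level of the 9 genes was 831, 898, 1957 and 2169 CPM. Irf7 and Stat2 were at least 2-fold higher with LPS in both genotypes and no member was at least 2-fold lower, 2 of 9 members against 6.9% of 6332 genes higher and 17.7% lower in wild type. In the libraries labelled Trpv4-null the count was again 2 of 9 higher and 0 lower, with backgrounds of 7.3% and 21.3% of 6340 genes. Comparison of a gene required 20 CPM and 30 UMIs in the higher of 2 libraries, and log2 ratios were taken on CPM plus a pseudocount of 1. Markers of other cell types differed with LPS too, in both directions. The summed level of 6 monocyte markers was 64.6, 65.7, 864 and 964 CPM, nearly all of it Ms4a4c with LPS (825 and 935 CPM), while Ccr2 was lower with LPS (34.1, 27.9, 6.76 and 5.55 CPM). That of 5 plasmacytoid dendritic cell markers was 618, 641, 2753 and 2834 CPM, in which Bst2 was higher with LPS (241, 252, 2631 and 2719 CPM) and Tcf4 lower (376, 388, 114 and 107 CPM). Bst2 is also counted among the ISGF3 targets described below, so its level does not mark a cell type by itself. The sums of 3 B cell markers (141, 142, 3.83 and 2.70 CPM, nearly all Ighm untreated) and of 4 neutrophil markers (155, 255, 44.8 and 23.7 CPM) were lower with LPS. The median mitochondrial share of UMIs was 6.06%, 6.13%, 3.05% and 3.19%. Their part in the members' ratios was not tested.

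**Figure D1:**
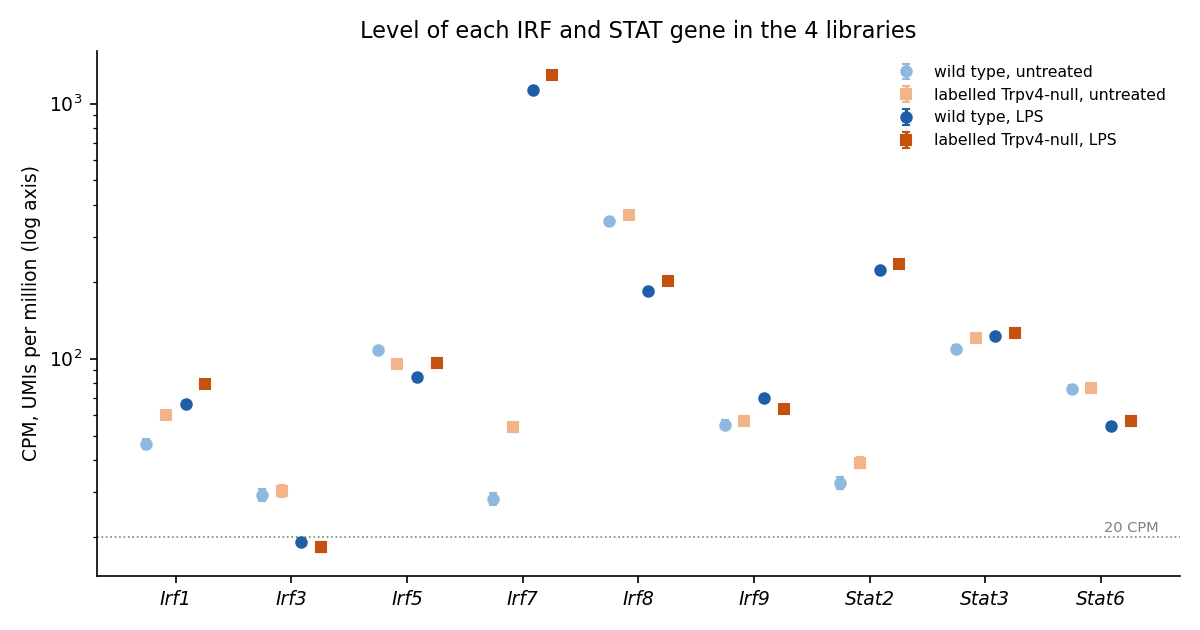
CPM of each of the 9 genes (log axis) in the 4 libraries, 1 point per library with its 95% Poisson interval and a dotted line at 20 CPM. Irf7 moves from 28.3 and 53.9 CPM untreated to 1131 and 1292 CPM with LPS, while Irf8 moves from 346 and 365 to 185 and 201 CPM.

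Irf7 (chromosome 7, 141262706 to 141266481, minus strand, GRCm38) is the inducible amplifier of type I interferon. It read 28.3 (26.7 to 29.9), 53.9 (51.8 to 56.0), 1131 (1126 to 1137) and 1292 (1285 to 1299) CPM, from 1236, 2531, 162992 and 140848 UMIs. Both LPS libraries lay far above both untreated ones. LPS over untreated was 40.02-fold (95% interval 37.8 to 42.4, log2 5.27) in wild type, rank 27 of 6332 genes, and 24.0-fold (23.1 to 24.96, log2 4.56) in cells labelled Trpv4-null, rank 47 of 6340. With the 8 clusters weighted equally the log2 ratios of Irf7 were 4.14 and 3.76. Per cell its level was 0.176 and 0.461 UMIs untreated and 19.7 and 21.5 UMIs with LPS.

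Stat2 (chromosome 10, 128270559 to 128292849, plus strand) encodes the STAT that is particular to ISGF3 and carries its main transactivation domain. Its levels were 32.6 (31.0 to 34.4), 39.2 (37.4 to 41.0), 223 (221 to 226) and 234 (232 to 237) CPM. The LPS libraries did not overlap the untreated ones, with ratios of 6.84 (6.49 to 7.22) in wild type and 5.98 (5.71 to 6.28) in cells labelled Trpv4-null, ranks 129 and 153. Irf9 (chromosome 14, 55603571 to 55610030, plus strand), the DNA-binding subunit of the same complex, read 55.2, 57.2, 70.4 and 63.4 CPM. Its ratios were 1.28 (1.22 to 1.34) and 1.11 (1.06 to 1.16), so the 2 subunits of ISGF3 among the members differed in size of response at 24 h. Irf9 shares 123 exon bases with Rnf31 (16.7 to 35.6 CPM) on the same strand, so strand alone would not separate reads there.

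Irf1 (chromosome 11, 53770014 to 53778374, plus strand), a factor that is made within hours of interferon gamma or LPS, read 46.2, 60.2, 66.2 and 79.8 CPM. The LPS ratio was 1.43 (1.36 to 1.503) in wild type and 1.33 (1.27 to 1.38) in cells labelled Trpv4-null. Both LPS libraries were above both untreated ones. Scaled by library total, the LPS ratio of Irf1 stayed below 2-fold in each genotype (log2 0.51 and 0.40). Under median-of-ratios scaling it was just past 2-fold in each (log2 1.031 and 1.002).

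Irf3 (chromosome 7, 44997648 to 45002848, plus strand), the constitutively made partner of IRF7, was the member nearest the floor for comparison. It read 29.2, 30.3, 19.1 and 18.3 CPM, with ratios of 0.654 (0.612 to 0.699) and 0.605 (0.565 to 0.648). The direction of Irf3 was thus opposite to that of Irf7 in both genotypes.

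Irf5 (chromosome 6, 29526625 to 29541871, plus strand) read 108 (105 to 111), 94.96 (92.2 to 97.8), 84.8 (83.3 to 86.3) and 96.3 (94.5 to 98.2) CPM. The LPS ratio was 0.785 (0.759 to 0.812) in wild type, where it turns to above 1 with median-of-ratios or TMM scaling, and 1.01 (0.979 to 1.05) in cells labelled Trpv4-null. The 3 libraries other than wild type untreated lay within 84.8 to 96.3 CPM. Irf5 shares 411 exon bases with Tnpo3 on the other strand (79.1, 76.6, 52.5 and 48.8 CPM). Reads could be split between them if counting ignored strand, and whether it used strand is not given.

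Irf8 (chromosome 8, 120736358 to 120756694, plus strand) partners PU.1 at the composite elements searched for above. It read 346 (341 to 352), 365 (360 to 371), 185 (183 to 187) and 201 (198 to 204) CPM, with ratios of 0.534 (0.523 to 0.544) and 0.550 (0.539 to 0.561). Both LPS libraries were lower than both untreated ones. Per cell the order was the other way, 2.16 and 3.13 UMIs untreated and 3.21 and 3.34 UMIs with LPS, in cells that held more UMIs in all.

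Stat3 (chromosome 11, 100885098 to 100939540, minus strand) read 110, 121, 123 and 127 CPM, with ratios of 1.12 (1.09 to 1.16) and 1.05 (1.01 to 1.08). Its untreated library labelled Trpv4-null lay close to both LPS libraries. Stat6 (chromosome 10, 127642986 to 127660957, plus strand), the factor of alternative activation, read 76.1, 76.5, 54.6 and 57.2 CPM. The Stat6 ratios of 0.718 (0.689 to 0.748) and 0.748 (0.718 to 0.780) turn to above 1 with median-of-ratios or TMM scaling.

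Over all compared genes the median log2 LPS ratio was -0.39 (wild type) and -0.42 (labelled Trpv4-null). With median-of-ratios size factors these medians were 0.13 and 0.18, and the members' log2 ratios lay 0.51 to 0.53 and 0.58 to 0.61 higher. Of the genes past 2-fold in wild type, 28.0% were higher with scaling by library total (437 higher, 1121 lower), 66.2% with median-of-ratios factors (829 and 424) and 65.6% with TMM (814 and 426). In the label Trpv4-null these shares were 25.6% (463 and 1348), 65.7% (972 and 508) and 64.0% (930 and 522). The members' median was 0.16 and 0.06 with the library total. Irf8 (-0.37 and -0.25 with median-of-ratios factors) and Irf3 (-0.08 and -0.11) were lower under each scaling, and Irf7, Stat2, Irf1, Irf9 and Stat3 were higher under each.

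**Figure D2:**
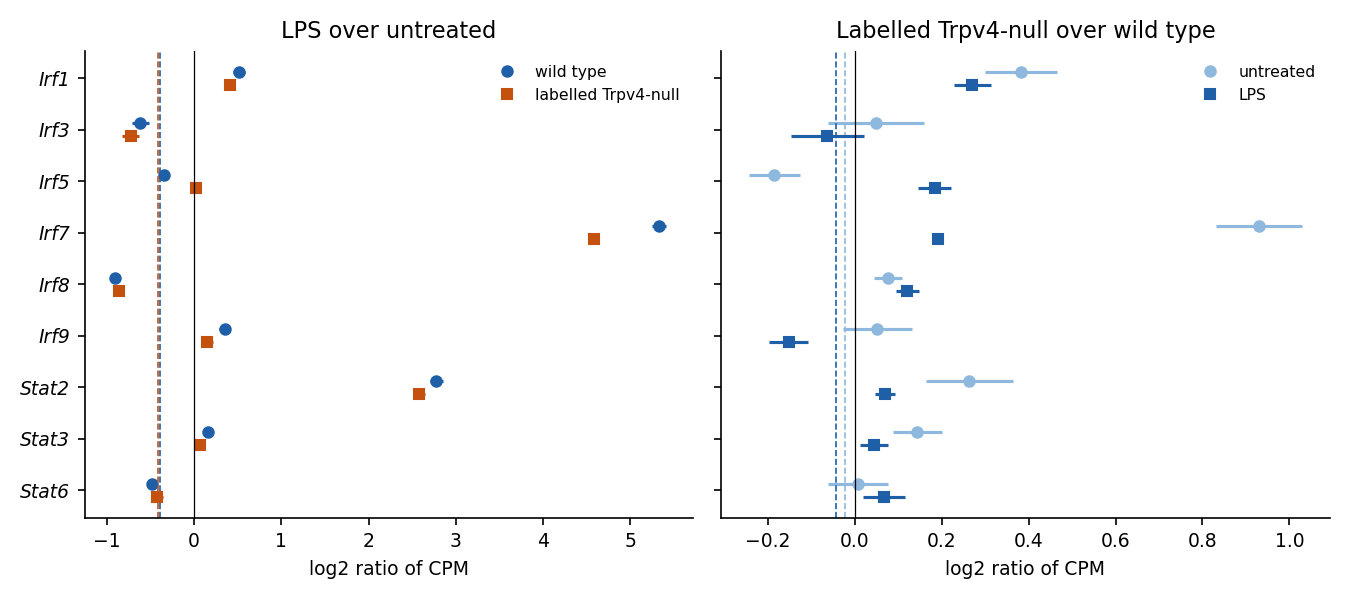
Log2 ratio of CPM for each gene, without a pseudocount, with its 95% counting interval, LPS over untreated on the left (circles wild type, squares labelled Trpv4-null) and labelled Trpv4-null over wild type on the right (circles untreated, squares LPS), with dashed lines at the median of all compared genes. Irf7 at ratios of 40.02 and 24.0 and Stat2 at 6.84 and 5.98 stand to the right on the left panel, and untreated Irf7 at 1.91 stands to the right on the right panel.

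Cells differ in depth, so each was thinned at random to 3000 UMIs, which left out 666, 209, 122 and 93 shallower cells. Irf7 then had a UMI in 6.02% (exact 95% interval 5.45 to 6.63) and 11.7% (10.8 to 12.6) of untreated cells and in 95.3% (94.8 to 95.8) and 96.7% (96.2 to 97.1) of LPS cells; without thinning the shares were 10.4%, 22.5%, 99.7% and 99.7%. Nearly every thinned LPS cell thus had at least 1 Irf7 UMI, and few untreated cells did. At 3 UMIs or more were 0.472% and 1.16% of untreated cells and 62.4% and 70.1% of LPS cells.

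Stat2 had a UMI in 8.68%, 10.2%, 48.4% and 50.3% of thinned cells (15.98%, 24.3%, 92.5% and 93.2% unthinned). Irf8 went the other way, with 64.2%, 66.0%, 42.8% and 44.3% (82.2%, 90.7%, 89.7% and 90.5% unthinned). The thinned share of the other 6 members was 5.11% (Irf3, labelled Trpv4-null with LPS) to 33.0% (Stat3 in the same library). The annotation offers no cells known to lack these genes, so the background from free RNA was not measured.

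The spread of counts over thinned cells, as variance over mean, would be 1 for pure counting. For Irf7 it was 1.83 in both untreated libraries and 1.34 and 1.37 with LPS. In the other members it was 0.977 to 1.19. Irf7 was thus the member whose few untreated UMIs were most unevenly held by cells. Irf7 and Stat2 were found together in 1.15% and 2.08% of untreated cells, where the product of their shares was 0.522% and 1.19%, and in 46.1% and 48.6% of LPS cells, where the product was the same to 3 digits. Irf7 was found in 95.3% and 96.7% of those LPS cells, so the joint share and the product had little room to differ there. The LPS values therefore cannot be set against the untreated ones.

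**Figure D3:**
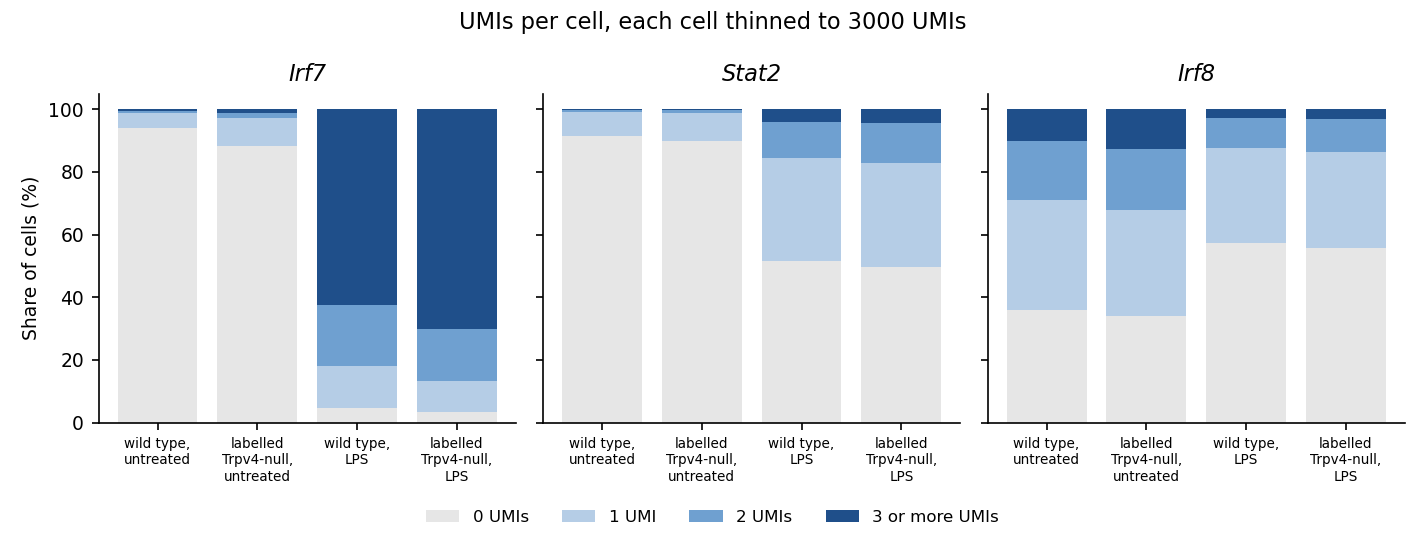
Share of cells (%) with 0, 1, 2 or at least 3 UMIs of Irf7, Stat2 and Irf8 in the 4 libraries, each cell thinned to 3000 UMIs. Cells with at least 3 Irf7 UMIs make up 0.472% and 1.16% of untreated and 62.4% and 70.1% of LPS cells.

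The authors' annotation sorts the cells into 9 clusters, of which the 8 with at least 100 cells in each library were described. The clusters were made from these same counts, so cluster values are a description. In every library Irf7, Stat2, Irf1, Irf9 and Stat3 were highest in the cluster the authors named Ifit1bl1+_Cmpk2+ for 2 interferon-stimulated genes. It held 2.52%, 3.26%, 10.4% and 11.0% of cells and 37.5%, 32.7%, 13.9% and 14.9% of Irf7 UMIs. Irf7 read 373, 486, 1500 and 1734 CPM there, against 18.9, 36.3, 1120 and 1253 CPM in the cluster named Macrophage. The untreated cells of the cluster thus stood 19.7-fold (16.9 to 23.0) and 13.4-fold (12.0 to 15.0) above, and the LPS cells 1.34-fold and 1.38-fold. In the other 7 clusters Irf7 spanned 13.2 to 29.9 and 26.7 to 56.0 CPM untreated.

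Stat2 in the Ifit1bl1+_Cmpk2+ cluster read 205, 199, 334 and 329 CPM, 7.04, 5.56, 1.49 and 1.38 times its level in the Macrophage cluster. Irf1 read 116, 152, 96.7 and 124 CPM there, so in this cluster it was lower with LPS (log2 -0.26 and -0.29) although it was higher in the library as a whole. Median-of-ratios or TMM factors of the libraries, which raise the members' LPS log2 ratios by 0.50 to 0.61, turn both of these cluster values above 0. Irf5 stood there at 1.25 to 1.84 times its level in the Macrophage cluster, Irf9 at 1.04 to 1.37 times and Stat3 at 1.10 to 1.25 times. Irf3, Irf8 and Stat6 kept within 0.825 to 1.11 times. The Irf9 intervals with LPS (0.9998 to 1.15 and 0.961 to 1.14) included 1. So did that of Stat3 in untreated cells labelled Trpv4-null (0.999 to 1.30).

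The LPS ratio of Irf7 was past 2-fold in 8 of 8 clusters in both genotypes (log2 2.01 to 6.26 in wild type, 1.83 to 5.49 in cells labelled Trpv4-null), lowest in Ifit1bl1+_Cmpk2+. Stat2 passed it in 7 of 8 (0.70 to 3.12 and 0.72 to 2.96). Irf8 was below 0 in 8 of 8 (-1.10 to -0.68 and -1.02 to -0.64), and past 2-fold only in Cd74+ in wild type (140 against 302 CPM) and in Tmem176+ in cells labelled Trpv4-null (197 against 401 CPM). The Proliferating cluster had the lowest Irf7 with LPS, 981 and 1112 CPM, and in wild type a Stat6 log2 ratio of -1.02 (38.7 against 79.6 CPM). The Stat2 count and the Irf8 and Stat6 values past 2-fold hold with library totals. Median-of-ratios or TMM factors of the libraries, which raise these log2 ratios by 0.50 to 0.61, would change each of them. In wild type Irf5 was below 0 in 8 of 8 clusters (-0.71 to -0.17), and in cells labelled Trpv4-null in 6 of 8, with the highest value of 0.50 in Ifit1bl1+_Cmpk2+, and the same factors turn some of the values below 0 to above it.

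**Figure D4:**
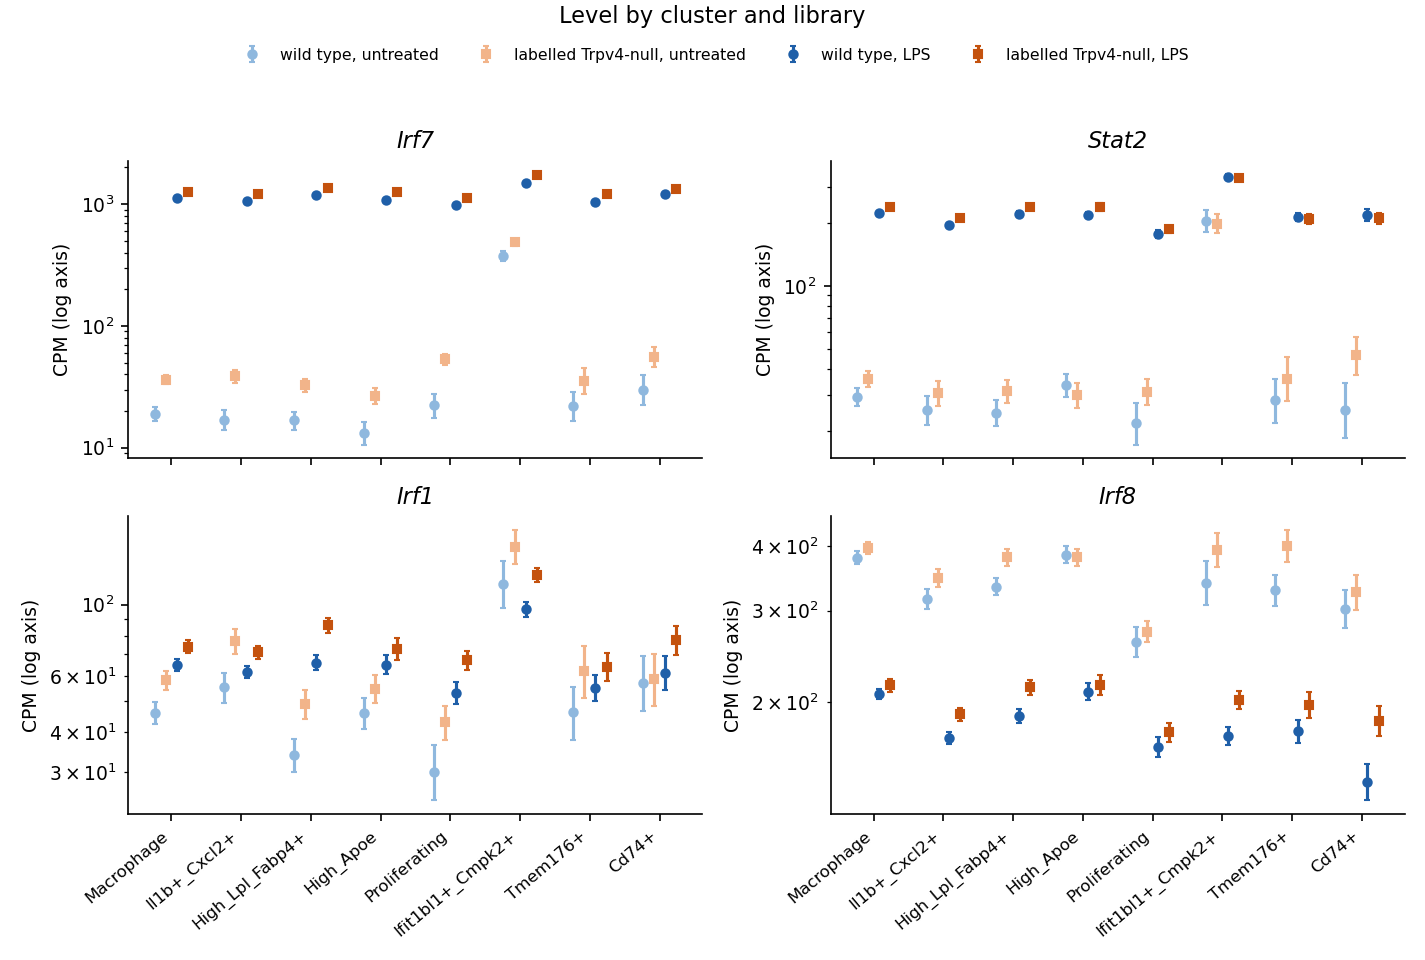
CPM (log axis) of Irf7, Stat2, Irf1 and Irf8 in 8 clusters, 1 point per library and cluster with its 95% Poisson interval. Untreated Irf7 stands at 373 and 486 CPM in the Ifit1bl1+_Cmpk2+ cluster and at 13.2 to 56.0 CPM in the other 7, and with LPS at 981 to 1734 CPM in all 8.

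Between genotypes the differences were smaller. Untreated, 0 of 9 members reached 2-fold, against 0.146% of 6156 genes higher and 0.146% lower in cells labelled Trpv4-null. Irf7 came nearest, at 1.91-fold higher (1.78 to 2.04, log2 0.91), rank 13 of 6156. Irf1 was 1.30 (1.23 to 1.38), Stat2 1.20 (1.12 to 1.29), Stat3 1.11 (1.06 to 1.15) and Irf8 1.05 (1.03 to 1.08) times the wild type level. The intervals of Irf9 (0.981 to 1.10), Irf3 (0.959 to 1.12) and Stat6 (0.959 to 1.05) included 1, and Irf5 was lower at 0.880 (0.844 to 0.917). Irf7 was higher in 8 of 8 clusters (log2 0.38 to 1.22), with the lowest value in Ifit1bl1+_Cmpk2+, and without that cluster the log2 ratio was 1.01, past 2-fold. With the 8 clusters weighted equally, the members' untreated log2 ratios moved by -0.34 to 0.07, and none reached 2-fold. The Ifit1bl1+_Cmpk2+ share of cells, 2.52% against 3.26%, differed in the same direction as Irf7. So did the summed level of 4 neutrophil markers in the table (of 7 listed), 155 against 255 CPM, of which S100a8 and S100a9 reached 20 CPM while Cxcr2 and Elane stood at 0.277 to 0.595 CPM. The part of such cells in the Irf7 difference was not tested.

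With LPS, 0 of 8 compared members reached 2-fold, against 0.134% of 5236 genes higher and 0.0573% lower. Irf3 was not compared, being under 20 CPM in both libraries. Irf1 was 1.21 (1.17 to 1.24), Irf7 1.14 (1.13 to 1.15), Irf5 1.14 (1.11 to 1.17) and Irf8 1.09 (1.07 to 1.11) times the wild type level, and Stat2, Stat6 and Stat3 1.03 to 1.05 times. Irf9 was lower, at 0.900 (0.872 to 0.928). All these intervals excluded 1, but they hold counting error alone and no spread between mice or cultures. Irf7 was higher in 8 of 8 clusters (log2 0.14 to 0.21), Irf1 in 8 of 8, and Irf5 in 8 of 8 (0.08 to 0.27), whereas untreated Irf5 had been lower in 8 of 8 (-0.40 to -0.07). The counting interval of Irf5 excluded 1 in 5 of these clusters with LPS and in 4 untreated.

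The log2 LPS ratio in cells labelled Trpv4-null minus that in wild type was -0.71 for Irf7 (-0.81 to -0.62), and 0.371% of 6471 genes had a lower value. With clusters weighted equally it was -0.38, and without the Ifit1bl1+_Cmpk2+ cluster -0.82. The value with library totals is the genotype ratio with LPS (log2 0.19) less that in untreated cells (0.91). For Irf5 the difference was 0.37 (0.30 to 0.44), with 96.7% of genes below it. Irf9 (-0.20), Stat2 (-0.19), Irf1 (-0.11), Irf3 (-0.11), Stat3 (-0.10), Irf8 (0.04) and Stat6 (0.06) lay nearer the median of all genes, -0.04. None of the 9 differed by 2-fold, against backgrounds of 0.541% higher and 0.0927% lower.

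**Figure D5:**
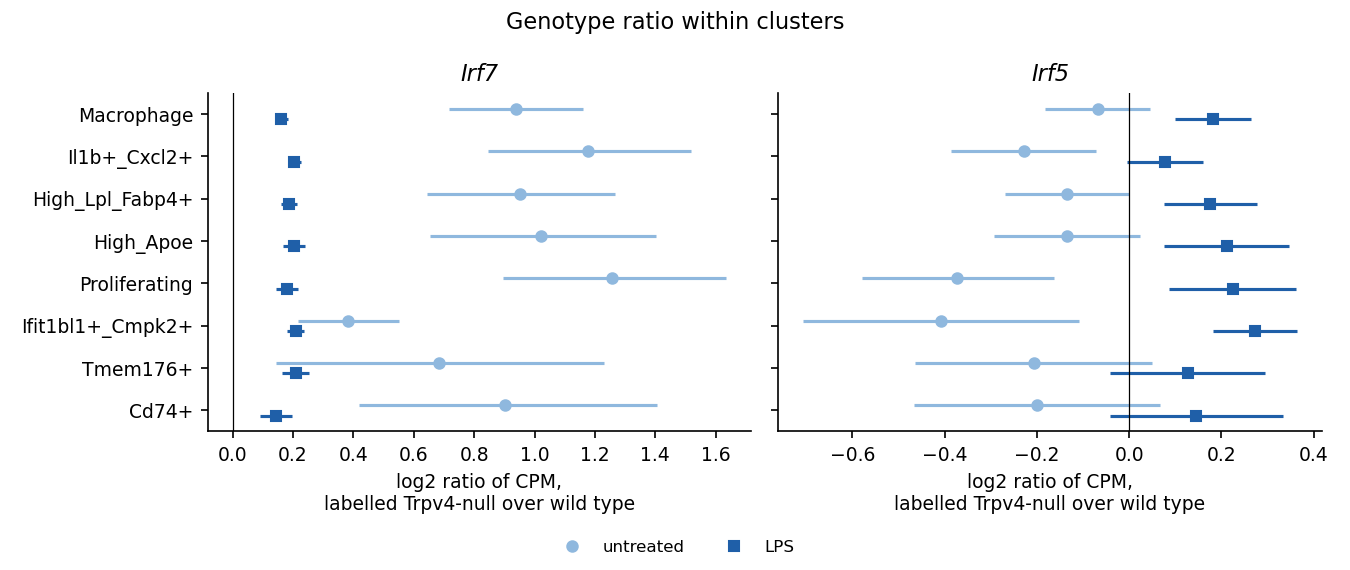
Log2 ratio of labelled Trpv4-null over wild type for Irf7 and Irf5 within each of 8 clusters, untreated and with LPS, without a pseudocount and with 95% counting intervals. Irf7 lies above 0 at every point (ratios of 1.30 to 2.39 untreated and 1.10 to 1.16 with LPS), and Irf5 lies below 0 untreated (0.754 to 0.954) and above 0 with LPS (1.06 to 1.21).

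Genes around the members were taken from lists by role, and each count can be read against the 6.9% higher and 17.7% lower of all genes in wild type and 7.3% and 21.3% in cells labelled Trpv4-null. A gene low in 1 group could enter a comparison through the other group alone, in either direction. Of 8 interferon genes only Ifnb1, a direct target of IRF3 and IRF7, was in the table, with 1, 0, 637 and 709 UMIs (0.0229, 0, 4.42 and 6.503 CPM). It stayed under 20 CPM and was not compared. Of 7 interferon receptors and Janus kinases, 1 was at least 2-fold higher with LPS and 1 lower in both genotypes. Jak2 read 21.3, 19.9, 102 and 88.1 CPM, and Ifngr1, which binds interferon gamma, 280, 253, 123 and 119 CPM. The list's median log2 ratio was 0.16 in wild type and 0.31 in cells labelled Trpv4-null.

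Among 16 kinases, adaptors and sensors upstream of IRF3, IRF5 and IRF7, 12 were compared, and 6 were at least 2-fold higher in both genotypes, 1 lower in wild type and 2 in cells labelled Trpv4-null (median 0.64 and 0.72). The RNA sensors Ddx58 (52.3 to 284 CPM in wild type) and Ifih1 (30.7 to 150 CPM), the DNA sensor Mb21d1 (6.95 to 23.2 CPM) and the TBK1-binding adaptor Tank (33.1 to 86.7 CPM) had log2 ratios of 2.42, 2.26, 1.61 and 1.36. Mb21d1 passed 20 CPM with LPS alone, so it could enter only as higher. Of 20 ISGF3 targets 19 were in the table, and 19 of 19 were past 2-fold higher in both genotypes (median 3.79 and 3.76), among them the ubiquitin-like modifier Isg15 with 32.2, 49.2, 1854 and 2636 CPM and Oasl1 with 3.13, 9.83, 210 and 323 CPM. Of the IRF1 and interferon gamma-type targets, 11 of 11 compared were past 2-fold (median 2.68 and 2.58), such as the guanylate-binding protein Gbp2 with 29.5, 56.1, 389 and 463 CPM. Only 14 of the 19 and 8 of the 11 reached 20 CPM in an untreated library. The rest, such as Oasl1, passed with LPS alone and could enter only as higher. Both target lists were nearly all higher in cells labelled Trpv4-null too: 14 of 14 and 8 of 8 compared genes untreated, and 18 of 19 and 11 of 11 with LPS, with medians of 0.39, 0.19, 0.24 and 0.23. Of all compared genes, 42.4% were above 0 untreated and 37.4% with LPS. Of the STAT6 targets compared untreated, 0 of 4 were above 0 (median -0.62). Pparg passed 20 CPM there through wild type alone, so it could enter only as lower. Of the STAT3 targets 3 of 9 were above 0 untreated (median -0.13), not far from the share of all genes. With LPS 1 of 2 STAT6 targets and 3 of 9 STAT3 targets were above 0 (medians 0.14 and -0.02). None of the genes compared differed by 2-fold between genotypes.

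Receptors that signal through STAT3 or STAT6 went both ways with LPS, 3 of 7 compared at least 2-fold higher and 3 lower in both genotypes (median -0.47 and -0.28). The interleukin 6 receptor chains were lower, Il6ra at 189, 199, 40.9 and 36.7 CPM and Il6st at 69.7, 78.5, 16.95 and 16.4 CPM. The common gamma chain Il2rg was higher (log2 1.98 and 2.04), as was Il4ra (1.22 and 1.02). Of 9 STAT3 targets compared, 2 in wild type and 3 in cells labelled Trpv4-null were at least 2-fold higher and none lower (median 0.65 in both), led by the feedback inhibitor Socs3 (21.7, 12.7, 202 and 194 CPM). Of 12 STAT6 targets 11 were in the table, and only 4 were compared in wild type and 3 in cells labelled Trpv4-null, Pparg being compared in wild type alone. At least 2-fold lower with LPS were 4 of 4 (median -3.19) and 2 of 3 (median -3.27). Clec10a passed 20 CPM through the untreated libraries alone, and Pparg through wild type untreated alone. Their entry depended on being high there, and these counts do not describe the whole list. The mannose receptor Mrc1 read 511, 506, 64.0 and 51.4 CPM, and Clec10a 32.9, 24.7, 1.51 and 1.15 CPM.

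Among 9 compared cofactors and DNA-binding partners, 3 stood 2-fold or more above untreated and 1 as far below in both genotypes (median 0.21 and 0.39). They were Batf (3.43, 3.98, 36.6 and 30.8 CPM), Batf2 (4.60, 6.51, 31.8 and 46.4 CPM) and Cebpb (log2 1.12 and 1.23) on one side and the corepressor Irf2bp2 (432, 399, 169 and 132 CPM) on the other. Of 9 compared negative regulators, 3 in wild type and 4 in cells labelled Trpv4-null were higher and none lower (median 0.05 and 0.16). Usp18, which blocks the interferon receptor, read 8.55, 11.9, 226 and 258 CPM, and Socs1, which inhibits Janus kinases, 1.92, 1.72, 47.4 and 47.2 CPM. Batf, Batf2, Usp18 and Socs1 passed 20 CPM with LPS alone, so they could enter only as higher. Of 7 other IRF and STAT family genes, 3 and 4 were compared, with 1 at least 2-fold higher and none lower in each genotype (median -0.47 and -0.51).

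The genes whose levels ran most like each member were sought over 32 library-by-cluster sums (4 libraries by 8 clusters) as the Pearson correlation of log2 CPM. These sums share libraries and treatment, so the values are a description. Irf7 ran most like Isg15 (0.994), Phf11b (0.994) and Xaf1 (0.993), and Stat2 like Ifi47 (0.994), Ifi204 (0.993) and Ifit3 (0.993), all with low untreated and high LPS levels. Irf8 ran most like Erbin (0.971), Tecpr1 (0.970) and Hexa (0.967), and Irf3 like Arid3a (0.945), Cnnm3 (0.943) and Abcd2 (0.943). Likeness was looser for Irf1 (Golga3, 0.883), Irf5 (Plekho2, 0.884), Stat6 (Rabac1, 0.895), Irf9 (Trim12c, 0.820) and Stat3 (Irf1, 0.831). Between members, Irf7 and Stat2 gave 0.98, Irf3 and Irf8 0.82, Irf7 and Irf8 -0.84, and Irf7 and Irf3 -0.82. With Spearman's rank correlation, 1 of the 3 most alike genes was the same for Irf5 and for Irf9, and 0 of 3 for the other 7 members.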

How the data were processed

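Single-cell RNA was counted in 4 libraries, 1 per group. The deposited table holds whole-number UMI counts per gene and cell, not normalized, and the authors' cell annotation, per the file headers, gives each cell's library, cluster name and UMI total and the fraction of its UMIs from mitochondrial genes. The submitters' processing notes name the build mm10 and the tools R 4.2, Seurat 4 and Cell Ranger 3.1.0, with no role or order. Not given in the sources used here were cell filters, doublet treatment and strand; no doublet caller was run.

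UMIs were summed per library, and per library and cluster, and scaled by the total to CPM. CPM carries exact Poisson, ratios exact conditional and shares of cells exact Clopper-Pearson 95% intervals, all for counting error only. With 1 library per group no p-value was computed. Log2 ratios used a pseudocount of 1 CPM, and 2-fold was counted as a size. Alternatives were other size factors, pseudocounts of 0.1 and 10 CPM, no filter, thinning, equal cluster weights, and leaving out deep cells or a cluster. The members, gene lists, markers and motifs were chosen with earlier results of these data known. Named genes were the 9 members, up to 4 of each list with the largest ratio, and the 3 most correlated genes per member, without unnamed gene models; a few others (overlapping genes, cell markers) were chosen after their values were seen. Positions came from GENCODE M21, where GRCm38 is the assembly that mm10 names. Python 3.11.15, scipy 1.17.1, pandas 2.3.3 and, for TMM, edgeR 4.0.16 in R 4.3.3 were used, and the ratio step was tested on simulated counts.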

Additional observations from a re-analysis of the deposited data

Results flagged for a closer look

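A few members lay on opposite sides of 0 in groups under the same contrast. None of these differences was tested, since each value comes from 1 library per group. Irf5 had a log2 LPS ratio of -0.34 in wild type and of 0.020 in cells labelled Trpv4-null, and its log2 ratio of labelled Trpv4-null over wild type was -0.18 untreated and 0.18 with LPS. With median-of-ratios or TMM scaling both LPS ratios of Irf5 lay above 0. For Irf9 the genotype ratio was 0.051 untreated and -0.15 with LPS, and for Irf3 it was 0.047 and -0.060. The counting intervals of Irf9 untreated and of Irf3 in both conditions included a ratio of 1.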

How the results depend on the processing

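The counts of members at least 2-fold higher or lower stayed within 1.5 times under every alternative run except 1: without the Ifit1bl1+_Cmpk2+ cluster, an alternative chosen after seeing the data, 1 member (Irf7) in place of 0 was at least 2-fold higher in cells labelled Trpv4-null untreated. Within that bound, the LPS count was 3 in place of 2 (Irf1 added) with median-of-ratios factors in both genotypes and with TMM in wild type. The share of all genes at least 2-fold higher was then 13.1% (wild type) and 15.3% (labelled Trpv4-null) with median-of-ratios factors. With TMM it was 12.9% in wild type. Of 35 log2 ratios, 26 moved beyond their counting interval with median-of-ratios factors and 26 with TMM, 13 with clusters weighted equally, 11 with a pseudocount of 10 CPM, 8 with thinning and 6 without the Ifit1bl1+_Cmpk2+ cluster. None moved with a pseudocount of 0.1 CPM, no filter, or without the proliferating cluster or the 5% of cells with most UMIs. With clusters weighted equally Irf7 had log2 LPS ratios of 4.14 and 3.76, and without the Ifit1bl1+_Cmpk2+ cluster 5.83 and 5.002. The difference between them ranged from -0.82 to -0.38 over all settings run. Irf5 in cells labelled Trpv4-null turned to -0.02 and -0.09 under these settings. The genotype ratio untreated changed sign for Stat6 with equal weights and for Irf3 and Irf9 with thinning. The cause of these shifts was not tested. No paired analysis was possible because the labels give no replicate numbers; a fit of LPS over both genotypes, which would take the genotype difference as its error, was not run. The smallest library sums among members were those of Irf7 (1236 UMIs) and Irf3 (1279 UMIs), both in wild type untreated.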
